A study of Mus musculus with 12 samples.

Results

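Expression was followed in 9 genes that lie near Auts2 on mouse chromosome 5, in mice with a deletion of Auts2 exon 7. They were taken by symbol out of 55487 genes counted. Galnt17 and Caln1 flank Auts2 on one side, and Gtf2i, Gtf2ird1, Clip2, Rfc2, Limk1, Eln and Baz1b lie in the mouse counterpart of the Williams syndrome region. The rule itself uses no measured value, but earlier results of these data were known when it was set. The question put to them was whether deleting exon 7 of Auts2 went with a change in the genes next to it.

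RNA sequencing was done on 12 male mice in 4 groups of 3. At postnatal day 0 (P0), forebrain was taken from 3 knockouts labelled Cmv-cre Auts2-ex7 koko and from 3 BL6 wild-type littermates. At postnatal day 14 (P14), hippocampus was taken from 3 knockouts labelled Nes-cre Auts2-ex7 koko and from 3 controls labelled auts2-ex7-fl-het. The targeted allele is named Auts2tm1.1Dare, and the Cre lines are B6.C-Tg(CMV-cre)1Cgn/J, which recombines throughout the body, and B6.Cg-Tg(Nes-cre)1Kln/J, which recombines in neural progenitors and their progeny. Cells outside the neural lineage are not a target of Nes-cre, so the P14 knockout is limited to that lineage by the driver. The labels do not say whether the floxed heterozygotes carry Nes-cre, so they may have 1 deleted allele or none. Age, brain region, Cre line and control genotype all change together between P0 and P14 and cannot be told apart. Library totals were 11247150 to 16796797 counts at P0 and 16830720 to 23340621 at P14.

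Williams syndrome is a human developmental disorder caused by loss of 1 copy of a block of neighbouring genes, and it joins a characteristic cognitive and social profile to a narrowing of large arteries. Elastin is the gene of that block tied to the arterial disease, while the GTF2I family, LIMK1, CLIP2 and BAZ1B have been studied for the brain and facial features. AUTS2, CALN1 and GALNT17 flank the block in human and mouse. Genes beside a deleted stretch are commonly measured with it, since regulatory DNA can act over long distances.

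All 9 genes lie within 2.64 Mb of Auts2, at 131437333 to 132543344 of chromosome 5 (GRCm38, minus strand). On one side, Galnt17 (ENSMUSG00000034040, 130872082 to 131308497, minus strand) lies 0.129 Mb from Auts2. Caln1 (ENSMUSG00000060371, 130369455 to 130847412, plus strand) lies 0.590 Mb from it. The other 7 lie on the other side, from Gtf2i (ENSMUSG00000060261, 134237834 to 134314760, minus strand) at 1.69 Mb to Baz1b (ENSMUSG00000002748, 135187264 to 135246129, plus strand) at 2.64 Mb. Between them come Gtf2ird1 (ENSMUSG00000023079, 134357656 to 134456716, minus), Clip2 (ENSMUSG00000063146, 134489383 to 134552434, minus), Rfc2 (ENSMUSG00000023104, 134581366 to 134601805, plus), Limk1 (ENSMUSG00000029674, 134656039 to 134688598, minus) and Eln (ENSMUSG00000029675, 134702593 to 134747323, minus).

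Sequence just upstream of 3 start sites is shown because the values of Caln1, Gtf2ird1 and Limk1 carry most of what follows. Each is the stretch of the RefSeq window (GRCm38.p6) of 250 bases before the start site that meets no annotated exon of its gene, written 5′ to 3′ on the gene's own strand. Capitals mark matches, on either strand, to the GC box GGGCGG, the CCAAT box CCAAT and the TATA box TATAAA.
Caln1, chr5:130369208-130369454, plus strand: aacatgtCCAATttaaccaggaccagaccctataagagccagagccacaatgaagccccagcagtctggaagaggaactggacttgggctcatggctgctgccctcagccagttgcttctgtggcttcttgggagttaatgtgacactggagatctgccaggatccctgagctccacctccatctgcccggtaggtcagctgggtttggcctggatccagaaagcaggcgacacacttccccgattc
Gtf2ird1, chr5:134456717-134456966, minus strand: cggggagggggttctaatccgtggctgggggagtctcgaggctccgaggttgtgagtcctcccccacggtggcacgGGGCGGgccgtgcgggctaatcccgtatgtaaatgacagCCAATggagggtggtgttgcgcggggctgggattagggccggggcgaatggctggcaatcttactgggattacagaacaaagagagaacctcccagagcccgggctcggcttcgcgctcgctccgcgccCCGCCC
Limk1, chr5:134688599-134688840, minus strand: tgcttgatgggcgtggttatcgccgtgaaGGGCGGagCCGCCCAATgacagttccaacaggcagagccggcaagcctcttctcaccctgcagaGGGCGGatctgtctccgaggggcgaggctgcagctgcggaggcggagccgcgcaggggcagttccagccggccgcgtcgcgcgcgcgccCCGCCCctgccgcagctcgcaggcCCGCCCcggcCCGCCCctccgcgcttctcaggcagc

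The Caln1 window differs from the other 2 shown in base composition. It held 4 CpG dinucleotides and 55.2% GC, against 22 and 66% for Gtf2ird1 and 31 and 73.6% for the Limk1 window shown. The second Limk1 window, which is not shown, was closer to that of Caln1, with 2 CpG and 57.2% GC. The median over all 32851 windows was 6 CpG and 52.4% GC. Caln1 had 1 CCAAT and no GGGCGG, Gtf2ird1 had 1 CCAAT and 2 GGGCGG, and the Limk1 window shown had 6 GGGCGG and 1 CCAAT that overlaps one of them. Among all windows, 32.7% held GGGCGG, 33.8% held CCAAT and 12.4% held TATAAA. Of the 9 genes, 7 had a window, with 8 windows in all because Limk1 has 2 start sites. None of the 8 held TATAAA. These matches describe the letters only.

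Auts2 itself had to be read first, as the gene that was targeted. Its gene-level count sums all isoforms and does not measure exon 7. CPM are read counts divided by the library size, here scaled by TMM over all 12 libraries, so that libraries of different depth can be compared. Auts2 was at 151 ± 12.8 CPM in P0 wild type and 169 ± 11.01 in P0 knockout, and at 102 ± 7.28 in P14 floxed heterozygotes and 81.9 ± 9.65 in P14 knockouts (SD, n = 3 each). Neither difference passed edgeR's quasi-likelihood test (log2 fold change 0.16 with adjusted p 0.362 at P0, and -0.30 with adjusted p 0.111 at P14). The lowest P0 knockout, at 161 CPM, lay just over the highest wild type, at 160 CPM, and all P14 knockouts lay under all P14 controls. The difference of the effects was -0.48 (SE 0.13), with adjusted p 0.0565 in edgeR and an exact permutation p of 0.005 within P0 and P14. It passed in 3 of 6 other settings and in 2 of 12 fits that left out a library.

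No gene of the 9 passed an adjusted p of 0.05 at P0 or at P14, where 0.909% of 16176 and 1.99% of 17208 tested genes did in edgeR. At an unadjusted p under 0.05 the counts were 1 of 9 at P0, against 16.1% of all tested genes, and 4 of 9 at P14, against 15.2%. DESeq2 called 1 (Caln1) at P0 and 0 at P14. Caln1 stood out when the genotype effects were compared. Its mean was lower in P0 knockouts and higher in P14 knockouts, and the difference of its effects between P0 and P14 was 0.65 on the log2 scale (SE 0.15), the only 1 of 9 to pass (1.79% of 18189 genes did). Gtf2ird1 was higher in all P14 knockouts than in all P14 controls, and Limk1 lay on opposite sides of its controls at P0 and P14, but neither passed the test. The levels of 7 of the 9 genes differed between P0 and P14 control tissue, as did 64.7% of 17355 tested genes, and the largest differences among the 9 were those of Galnt17 and Gtf2ird1. All 9 genes passed the low-count filter in every comparison, with 283 to 8110 counts per library.

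**Figure D1:**
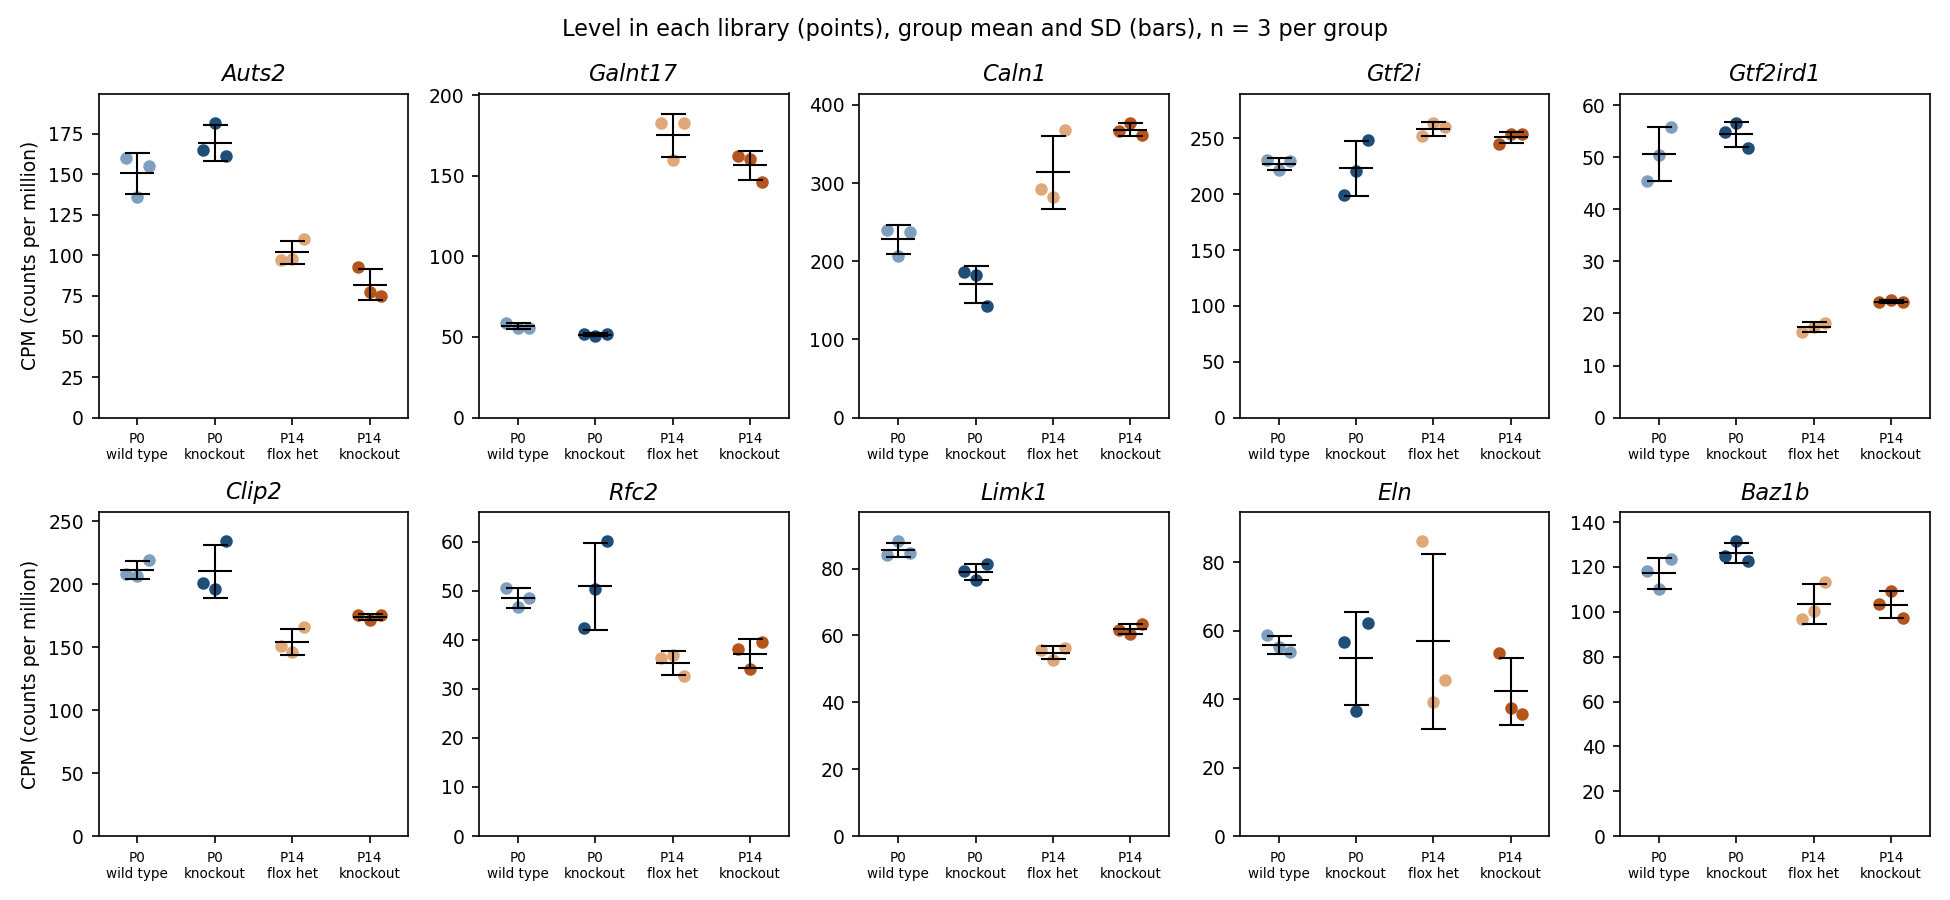
Level of Auts2 and of the 9 genes in each of the 12 libraries, in CPM from 0 on a linear axis. Points are libraries, and bars give the group mean and SD (n = 3 per group). Caln1 runs from 143 to 377 CPM, with all P0 knockouts under all P0 wild types, while Eln has 1 P14 floxed heterozygote at 86.0 CPM, far over the other 2.

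The 2 flanking genes come first. Caln1 encodes calneuron 1, a neuronal calcium sensor of the EF-hand type that sits on Golgi membranes. At P0 it measured 239, 207 and 237 CPM in the wild types and 186, 182 and 143 CPM in the knockouts. Every knockout lay under every wild type, with the lowest knockout well apart from the other 2. Group means were 228 ± 18.3 and 171 ± 23.7 CPM (SD, n = 3 each), for a log2 fold change of -0.42 (SE 0.10, 95% interval -0.64 to -0.21). The edgeR adjusted p was 0.0649, so Caln1 did not pass at P0. By exact permutation of the libraries, two-sided, p was 0.1, and 3 against 3 cannot go lower.

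The P0 value of Caln1 sits near the threshold, and the choice of fit moved it across. It passed in 5 of 8 other settings, with edgeR or DESeq2 adjusted p between 0.000132 and 0.0889 over the 8. It passed in 1 of the 6 fits that left out a library, the one without knockout replicate 3, where the log2 fold change shrank to -0.31. The 6 P0 libraries carry numbers in 2 series, 1407 to 1410 (2 libraries of each genotype) and 1415 and 1416 (1 of each). The knockout minus wild-type difference of mean log2 CPM was -0.27 in the first series and -0.73 in the second, which has no replicates. Both series thus gave a lower value in the knockout. The sum of 5 astrocyte markers was also lower in P0 knockouts, at 373 to 381 CPM against 418 to 562 CPM in wild type. The sum of 6 neuron markers was 5448 to 5717 CPM against 5689 to 6115 CPM. Microglia marker sums were lower without overlap (44.8 to 51.7 against 51.9 to 65.6 CPM), with P2ry12 called (log2 -0.93, edgeR adjusted p 0.0368). Oligodendrocyte marker sums were lower without overlap too (91.4 to 105 against 106 to 110 CPM). Choroid plexus marker sums were higher without overlap (median 913 against 794 CPM). No choroid plexus marker was called, with Ttr and Clic6 higher and Kl lower at an unadjusted p under 0.05. All 6 forebrain markers had higher values at P0, with 0 called in edgeR and 5 at an unadjusted p under 0.05 (16.1% of all tested genes had). The part of cell composition or dissection in the Caln1 value was not tested, and in bulk tissue fewer cells of a type and less RNA per cell cannot be told apart.

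At P14, Caln1 measured 293, 282 and 368 CPM in the floxed heterozygotes and 367, 377 and 361 CPM in the knockouts. The knockouts were close together, and 1 control reached their level while the other 2 lay under them. Mean levels of 314 ± 46.7 and 368 ± 7.89 CPM (SD, n = 3 each) gave a log2 fold change of 0.24 (SE 0.09), with adjusted p 0.223 in edgeR and an unadjusted exact permutation p of 0.3. With control replicate 3, the library at 368 CPM, left out, the value was 0.38 and passed (edgeR adjusted p 0.000499).

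Set against each other, the P0 and P14 effects of Caln1 differed by 0.65 on the log2 scale, or 1.57-fold, with a 95% interval from 0.34 to 0.96 (edgeR interaction adjusted p 0.0282). Relabelling genotypes within P0 and P14 in all 400 ways gave an exact two-sided p of 0.015. The call was kept in 6 of 6 other settings, where the adjusted p was at most 0.0418 with edgeR or DESeq2. It was kept in 6 of the 12 fits that left out a library and lost without P0 wild-type replicate 1, P14 control replicates 1 and 2, and each of the 3 P14 knockouts, where the adjusted p was at most 0.0920 in edgeR. The estimate stayed between 0.54 and 0.78 in those 12 fits. Averaged over P0 and P14, the opposite values nearly cancelled, at -0.09 (edgeR adjusted p 0.819).

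Beside the P14 values stand those of regional markers. The summed level of 6 hippocampal markers was 908 to 1002 CPM in the P14 knockouts and 1125 to 1439 CPM in their controls. Of the 6, 3 were called lower: Prox1, C1ql2 and Dsp (log2 fold changes of -0.76, -0.89 and -0.93). Zbtb20, the most abundant of the 6, was not called (-0.50, edgeR adjusted p 0.517). Neurod6 and Wfs1 hardly differed (-0.04 and -0.07, edgeR adjusted p 0.870 and 0.728), so the lower sum was not shared evenly by the 6. The sum of 5 striatal markers was 66.1 to 121 CPM in the knockouts and 35.0 to 49.9 CPM in the controls, with 1 of 5 called higher. Thalamic markers had 1 of 4 tested called lower (sums of 79.5 to 81.4 CPM in knockouts and 87.5 to 113 CPM in controls), and forebrain markers 1 of 6 called higher (227 to 253 CPM and 215 to 233 CPM). All 4 oligodendrocyte precursor markers had higher values, with none called in edgeR and 3 at an unadjusted p under 0.05 (273 to 290 CPM and 215 to 255 CPM). Of all genes tested at P14, 1.99% were called in edgeR and 15.2% had an unadjusted p under 0.05. Choroid plexus markers ranged from 146 to 2510 CPM within the controls alone. Neuron markers summed to 5676 to 6211 CPM in the controls and 5815 to 6144 CPM in the knockouts. The part of dissection in any P14 value given here was not tested. The 6 Hox genes listed as markers of hindbrain and spinal cord had at most 1 count per gene and library, and all were at 0 at P0.

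Galnt17, the gene closest to Auts2, encodes a brain-enriched member of the family of enzymes that start O-linked glycosylation by adding GalNAc to serine or threonine. At P0 it measured 58.6, 55.4 and 55.7 CPM in wild type and 51.7, 50.5 and 52.0 CPM in the knockouts. The groups did not overlap, with the highest knockout close under the lowest wild type. At P14 it measured 183, 160 and 182 CPM in the controls and 162, 160 and 146 CPM in the knockouts, and those groups overlapped. On the log2 scale the knockout minus control values were -0.14 in the forebrain (edgeR adjusted p 0.410) and -0.15 in the hippocampus (0.375), and their difference was -0.02 (95% interval -0.25 to 0.20). Over both, the effect was -0.15 (SE 0.06, 95% interval -0.26 to -0.04). An exact permutation within P0 and P14 gave p 0.015, and edgeR's adjusted p was 0.236.

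**Figure D2:**
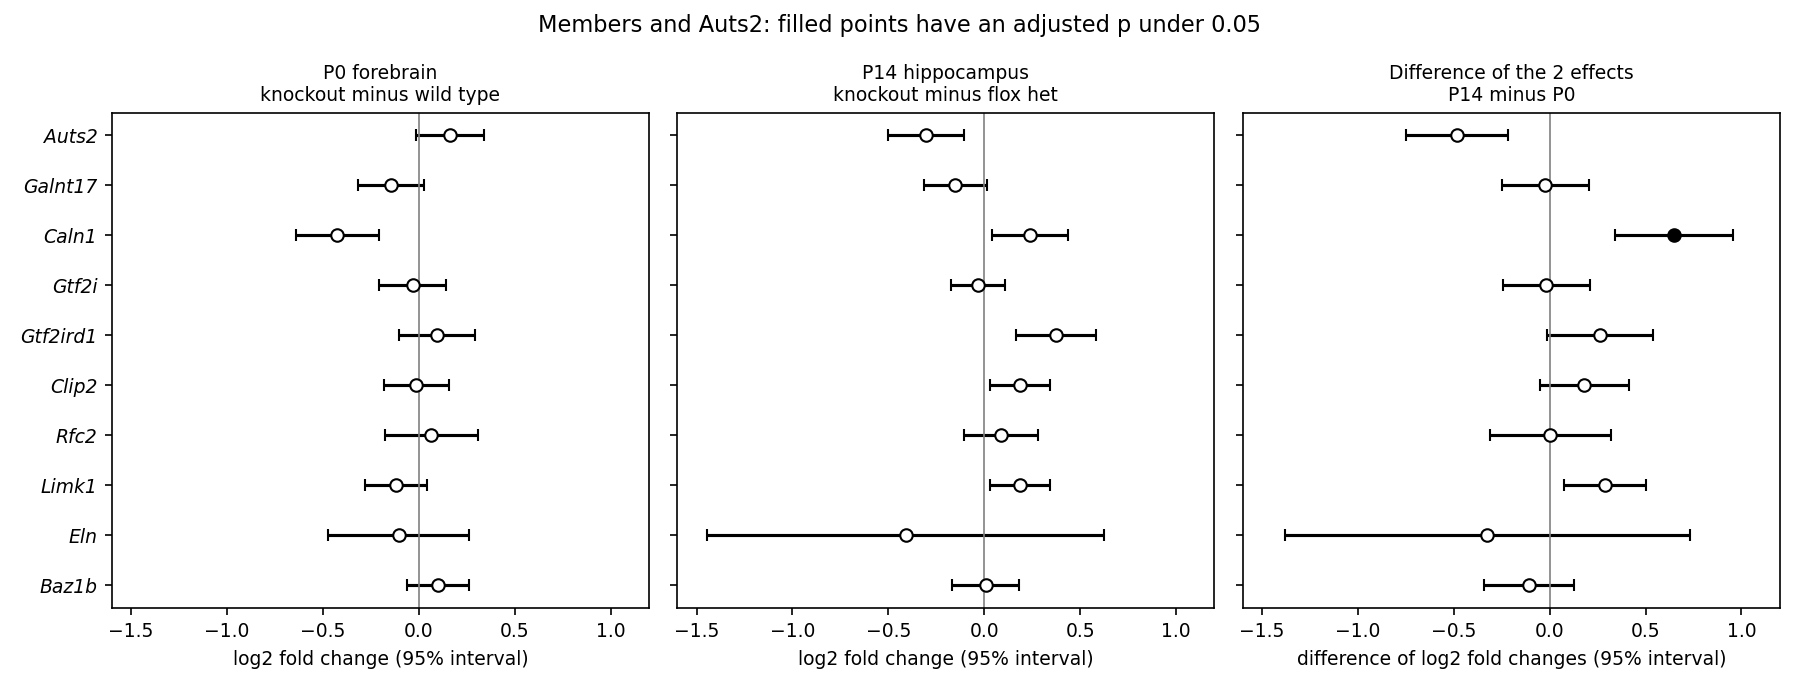
Log2 fold changes of Auts2 and the 9 genes with 95% intervals from edgeR, for knockout minus control at P0 and at P14, and for the P14 effect minus the P0 effect, on linear log2 axes. Of the intervals of the 9 genes in the last panel, those of Caln1 (0.34 to 0.96) and Limk1 (0.08 to 0.50) exclude 0, while the Eln interval (-1.38 to 0.73) is the widest.

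In the Williams region, the transcription factor genes differ from each other. Gtf2i encodes TFII-I, a signal-regulated transcription factor with repeated helix-loop-helix-like domains. It was at 227 ± 5.25 and 223 ± 24.7 CPM in P0 wild type and knockout, and at 259 ± 6.15 and 251 ± 5.05 CPM in P14 controls and knockouts (SD, n = 3 each). Its log2 fold change was -0.03 at P0 and at P14 (edgeR adjusted p 0.887 and 0.877), with 95% intervals of -0.21 to 0.14 and -0.17 to 0.11.

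Gtf2ird1 encodes a DNA-binding relative of TFII-I, and its RNA was the least abundant of the 9 at P14. There it measured 16.3, 17.4 and 18.2 CPM in the floxed heterozygotes and 22.2, 22.5 and 22.1 CPM in the knockouts. All knockouts lay over all controls, with hardly any spread among them. Group means were 17.3 ± 0.948 and 22.3 ± 0.212 CPM (SD, n = 3 each), a 1.30-fold difference (log2 0.37, SE 0.10, 95% interval 0.16 to 0.59). It did not pass, with adjusted p 0.0677 in edgeR and p 0.1 by exact permutation. It passed without a filter on low counts (edgeR adjusted p 0.0456) and without control replicate 3 (0.0127). At P0 the value was 0.10 (edgeR adjusted p 0.660), with the knockouts at 54.8, 56.6 and 51.8 CPM inside the upper part of the wild-type range of 45.5 to 55.9 CPM or just over it. The difference between the effects was 0.26 (edgeR adjusted p 0.351) and was not called.

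Clip2 and Limk1 act on the cytoskeleton, as a linker at growing microtubule ends and as the kinase that inactivates cofilin and so stabilises actin filaments. Limk1 measured 84.1, 88.1 and 84.7 CPM in P0 wild type and 79.4, 76.5 and 81.4 CPM in P0 knockouts. It measured 55.6, 52.6 and 56.4 CPM in P14 controls and 61.6, 60.6 and 63.5 CPM in P14 knockouts. Knockouts thus lay under every control at P0 and over every control at P14, a pattern with no overlap on opposite sides that 2.0% of 18189 genes showed. On the log2 scale these values were -0.12 at P0 (edgeR adjusted p 0.464) and 0.19 at P14 (0.240). Their difference was 0.29 with an SE of 0.10. Exact relabelling within P0 and P14 gave p 0.005, the smallest that 400 relabellings allow, but the edgeR adjusted p over all genes was 0.173, and no call was made in any of the 12 fits without a library or in 6 other settings.

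Clip2 had overlapping P0 groups, at 208, 206 and 219 CPM in wild type and 201, 196 and 234 CPM in knockouts, and a log2 fold change of -0.01 (edgeR adjusted p 0.957). At P14 it measured 151, 146 and 166 CPM in the controls and 176, 171 and 176 CPM in the knockouts. The P14 knockouts lay over the controls, with a log2 fold change of 0.19 (SE 0.07, edgeR adjusted p 0.231). Without control replicate 3 it passed, at 0.25 (edgeR adjusted p 0.0153). That 1 library held Caln1, Gtf2ird1 and Clip2 at their highest control levels, and leaving it out brought all 3 past the threshold. The number of all tested genes called at P14 also changed with the library left out. The share of all genes called in the fit without this library is not given here, so the 3 calls have no background beside them. The same library also had the highest control sums of hippocampal markers (1439 CPM) and choroid plexus markers (2510 CPM), whose part in these values was not tested.

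Baz1b and Rfc2 work in the nucleus. Baz1b encodes the WSTF subunit of ISWI chromatin remodelling complexes, and Rfc2 a subunit of replication factor C, the complex that loads the sliding clamp PCNA on DNA. Baz1b was at 117 ± 6.84 and 126 ± 4.605 CPM in P0 wild type and knockout, and at 103 ± 8.76 and 103 ± 5.98 CPM in P14 controls and knockouts (SD, n = 3 each). Its log2 fold changes were 0.10 and 0.01 (edgeR adjusted p 0.553 and 0.977). Rfc2 spread more among P0 knockouts, at 42.3, 50.2 and 60.0 CPM around a wild-type range of 46.6 to 50.5 CPM, and its log2 fold changes were 0.07 at P0 and 0.09 at P14 (edgeR adjusted p 0.821 and 0.712). For both genes, knockout and control libraries overlapped at P0 and at P14.

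Eln, the elastin gene, varied the most among the 9 within 3 of the 4 groups. It measured 58.6, 55.2 and 53.7 CPM in P0 wild type, 56.8, 36.6 and 62.3 CPM in P0 knockouts, 86.0, 39.0 and 45.5 CPM in P14 controls and 53.6, 37.5 and 35.6 CPM in P14 knockouts. The high P14 control is replicate 1, and the low P0 knockout is replicate 2. The coefficient of variation was 44.8% in P14 controls, against 2.38% for Gtf2i in the same libraries. The P14 log2 fold change was -0.41 with a 95% interval from -1.44 to 0.63 (edgeR adjusted p 0.708), and without control replicate 1 it was 0.01. Elastin is made by smooth muscle cells and fibroblasts of vessels and meninges rather than by neurons. The summed level of 10 mural and fibroblast markers was 413 to 451 CPM in P14 controls and 289 to 404 CPM in knockouts, 249 to 270 CPM in P0 wild type and 182 to 259 CPM in P0 knockouts. All 9 of those markers that could be tested at P14 had lower values in the knockouts, as had 8869 of 17208 tested genes. None was called in edgeR, and 4 had an unadjusted p under 0.05 (15.2% of all tested genes had). In P14 control replicate 1 the sum was 421 CPM, between those of the other 2 controls. In P0 knockout replicates 1, 2 and 3 it was 259, 235 and 182 CPM, so the lowest sum was in the library with the highest Eln. The sum of 5 endothelial markers was 120 to 132 CPM in P14 knockouts and 147 to 157 CPM in P14 controls. All 5 had lower values in the P14 knockouts, with none called in edgeR and 2 at an unadjusted p under 0.05. The part of these cell types in the Eln values was not tested.

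**Figure D3:**
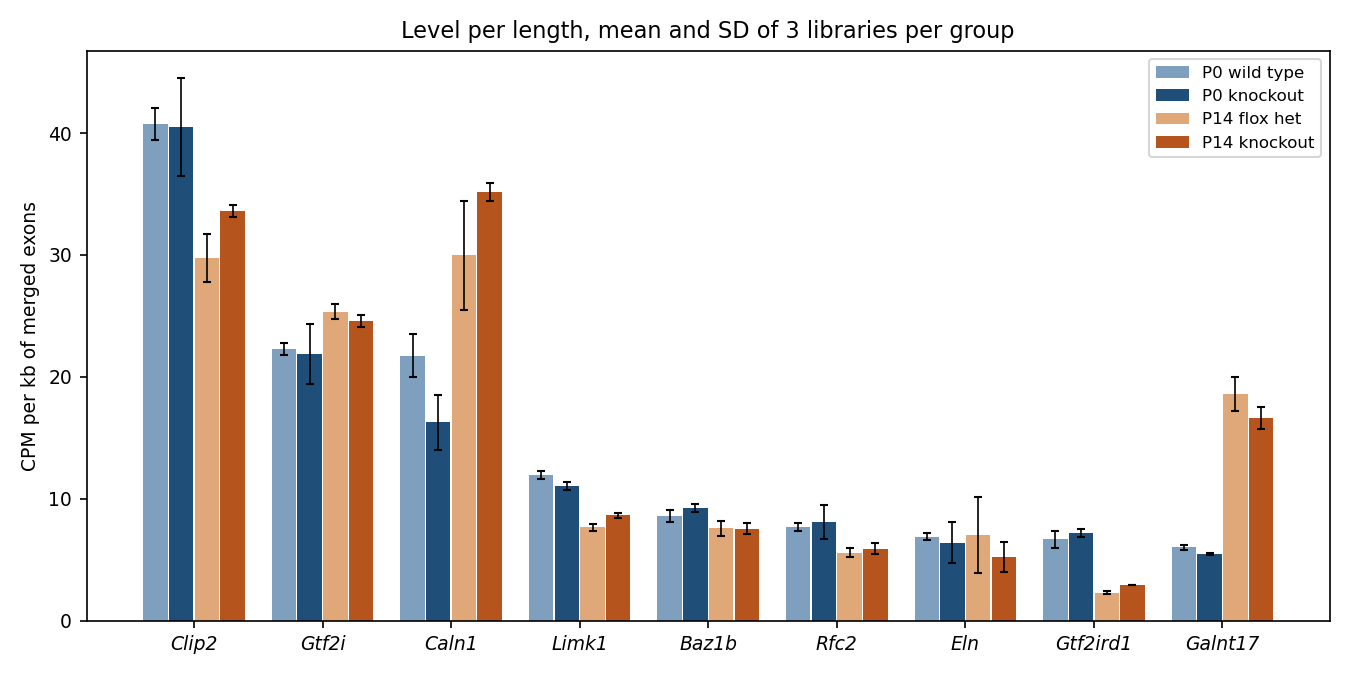
Mean level per length, in CPM per kb of merged exons, for the 9 genes in the 4 groups, with bars from 0 and SD (n = 3 libraries per group) as error bars. Clip2 leads at P0 with 40.7 in wild type, Caln1 and Clip2 are level in P14 controls at 29.96 and 29.8, and Galnt17 is the lowest at P0 and the fourth at P14.

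Because levels of different genes can only be compared per length, CPM was divided by the merged exon length in kb. In P0 wild type the order was Clip2 (40.7 CPM per kb), Gtf2i (22.3), Caln1 (21.7), Limk1 (11.96), Baz1b (8.58), Rfc2 (7.70), Eln (6.89), Gtf2ird1 (6.66) and Galnt17 (6.01). Gtf2i and Caln1 overlapped library by library, as did Eln with Gtf2ird1 and Gtf2ird1 with Galnt17, while the other neighbours in that order were apart. In P14 controls the order was Caln1 (29.96), Clip2 (29.8), Gtf2i (25.4), Galnt17 (18.6), Limk1 (7.66), Baz1b (7.57), Eln (7.02), Rfc2 (5.59) and Gtf2ird1 (2.28). There Caln1 overlapped with Clip2, and the run from Limk1 through Baz1b and Eln to Rfc2 overlapped step by step. In the knockouts, Caln1 lay clear of Gtf2i at P0, at 16.3 against 21.9 CPM per kb, and stood clear of Clip2 at P14, at 35.1 against 33.6 CPM per kb.

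The P0 and P14 control tissues were compared next. There, 7 of the 9 genes passed, against 64.7% of 17355 tested genes (32.5% higher and 32.2% lower), so a share like that of the 9 was found in all genes. Galnt17 was 3.08-fold higher in the P14 hippocampus than in the P0 forebrain (log2 1.62, SE 0.08, edgeR adjusted p 6.36e-11), and Gtf2ird1 was at 0.340 of its P0 level (log2 -1.56, SE 0.10, edgeR adjusted p 1.89e-09). Caln1 was 1.37-fold higher (edgeR adjusted p 0.00109). Limk1, Clip2 and Rfc2 were lower, with log2 fold changes of -0.65, -0.46 and -0.47 (edgeR adjusted p 1.66e-06, 7.83e-05 and 0.000262). Gtf2i was 0.18 higher on the log2 scale (edgeR adjusted p 0.0417), a call kept in 2 of the 6 fits that left out a library and lost without each P0 wild type and without P14 control replicate 2. Baz1b did not pass, at -0.19 (edgeR adjusted p 0.0598), though it did without P14 control replicate 3, at -0.25 (0.0062). Eln did not pass either, at 0.02 (edgeR adjusted p 0.968), but without P14 control replicate 1 it was -0.40 and passed (edgeR adjusted p 0.00298). Groups did not overlap for the 7 called genes, 3 with P14 over P0 (34.8% of all tested genes) and 4 with P14 under P0 (34.3%).

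Seen as a set, the 9 genes had values on both sides of 0. The median log2 fold change was -0.03 at P0, with 3 of 9 values over 0, and 0.09 at P14, with 6 of 9 over 0, while the medians over all tested genes were -0.00034 and -0.0073. Knockouts lay wholly under wild type for Galnt17, Caln1 and Limk1 at P0 (3 of 9, against 11.1% of all tested genes). At P14 they lay wholly over the controls for Gtf2ird1, Clip2 and Limk1 (3 of 9, against 9.43%). Over both contexts together, 0.72% of 18189 genes passed in edgeR and none of the 9 did (0 with DESeq2, and 2 of 9 at an unadjusted p under 0.05, which 12.7% of all tested genes reached).

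**Figure D4:**
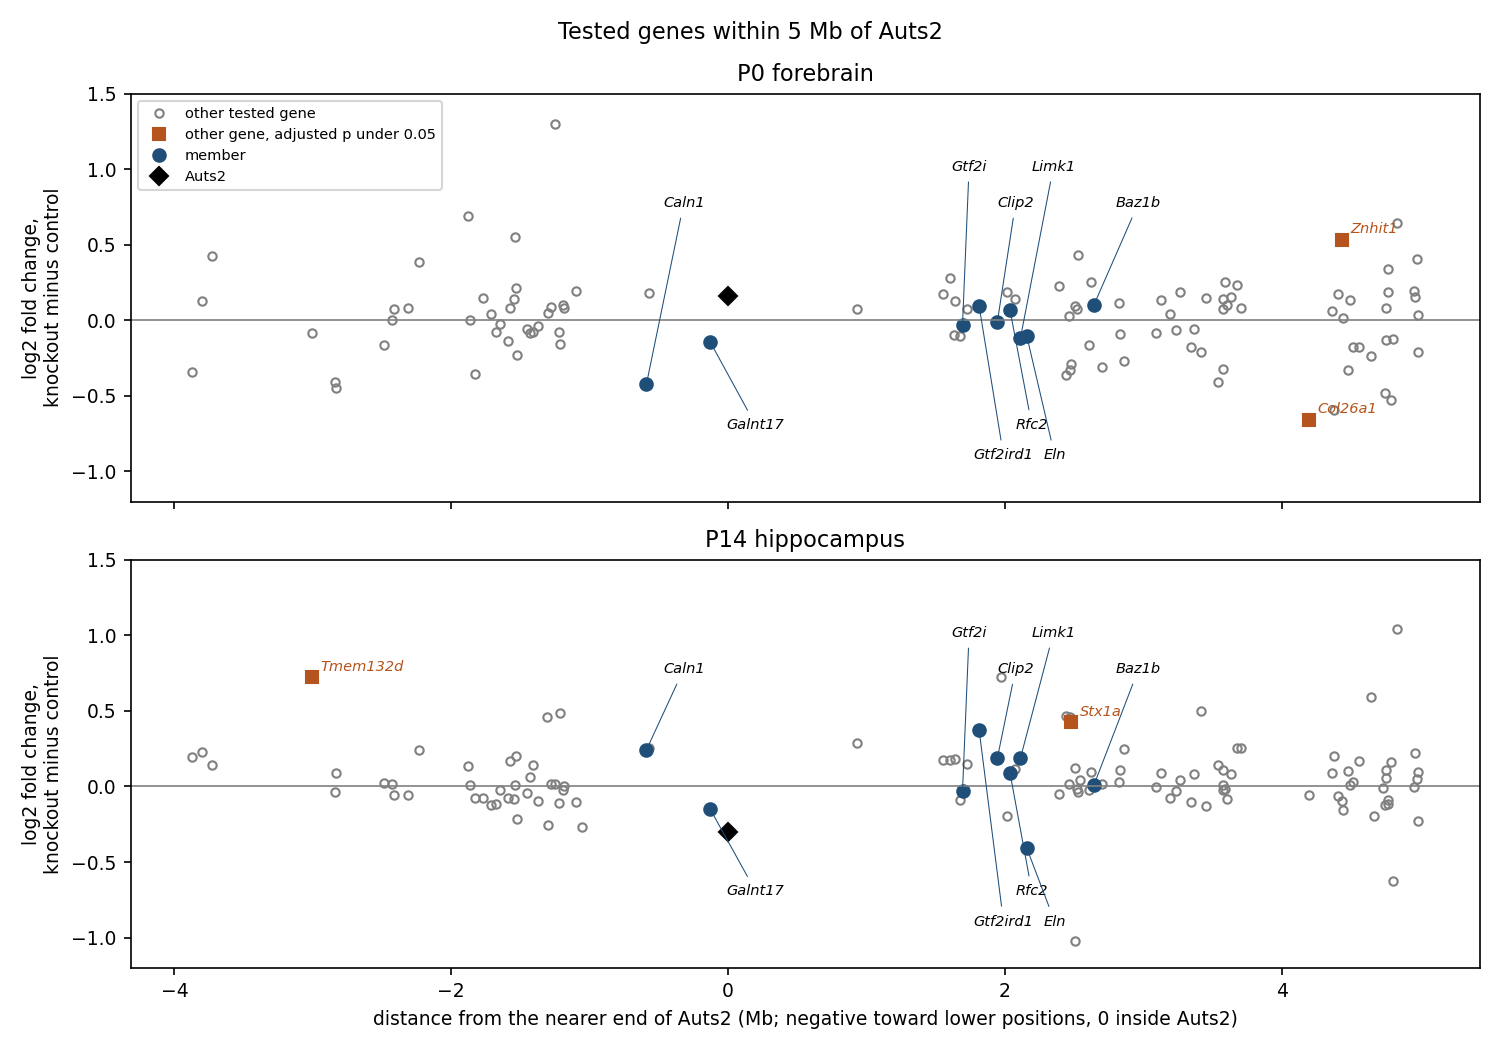
Log2 fold change of each tested gene within 5 Mb of Auts2 against its distance from Auts2 in Mb (0 is Auts2 itself), at P0 and at P14, with the 9 genes labelled and genes with an edgeR adjusted p under 0.05 marked. Only 2 genes are marked at P0, out of 111, and 2 at P14, out of 117, and none of them is among the 9.

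The genes around the 9 were also mostly without calls. Within 5 Mb of Auts2, 111 genes were tested at P0 and 117 at P14, and the medians of their log2 fold changes were 0.04 and 0.02. At P0, Col26a1, which encodes a collagen, was lower (-0.66, edgeR adjusted p 0.0368), and Znhit1, a subunit of a chromatin remodelling complex that deposits H2A.Z, was higher (0.53, edgeR adjusted p 0.0325). Both calls were lost without wild-type replicate 1 or 2 or knockout replicate 1 or 2. At P14, Tmem132d, a transmembrane protein gene, was higher (0.72, edgeR adjusted p 0.000547), as was Stx1a (0.43, edgeR adjusted p 0.00725). Tmem132d kept its call without any 1 library, and Stx1a lost it without control replicate 2. For the difference of the effects, 6 of 121 genes passed, or 4.96%, against 1.79% of all genes. The 6 were Caln1, Stx1a, Hip1, Tmem132d and 4933404O12Rik, higher, and Znhit1, lower. Within 2 Mb, 40 genes were tested for the difference and Caln1 was the 1 called. The 10 listed genes beyond Caln1, from Tyw1 at 1.096 Mb to Vkorc1l1 at 1.45 Mb, held no edgeR call in either context or in the difference, with 0, 1 and 1 of 10 at an unadjusted p under 0.05 (16.1%, 15.2% and 15.3% of all tested genes).

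Other genes in or beside the Williams region, Hip1 among them, were taken from a list of 24. At P0, 18 were tested with none called in edgeR (0.909% of all tested genes were), 6 had an unadjusted p under 0.05 (16.1% of all tested genes had), and the median log2 fold change was 0.08. At P14, 19 were tested with 1 called (5.26%, against 1.99% of all tested genes) and a median of 0.10. For the difference of the effects, 2 of 20 were called (10%, against 1.79%). At an unadjusted p under 0.05 the counts were 3 of 19 at P14 (15.2% of all tested genes) and 4 of 20 for the difference (15.3%). The gene called at P14 was Stx1a, which encodes the presynaptic SNARE protein syntaxin 1A. It measured 127, 131 and 127 CPM in P0 wild type, 93.4, 93.1 and 128 CPM in P0 knockouts, 157, 137 and 144 CPM in P14 controls and 188, 190 and 205 CPM in P14 knockouts. The P14 knockouts were all over the controls, while at P0 2 knockouts were low and the third, from the second library series, was at the wild-type level. Its effects differed by 0.70 between P0 and P14 (SE 0.14, edgeR adjusted p 0.0111), and each of the 12 fits that left out a library kept that call. Hip1, which encodes a clathrin adaptor that binds huntingtin, had an interaction of 0.50 (SE 0.11, edgeR adjusted p 0.0212), kept in 6 of 12 such fits and lost without P0 wild-type replicates 1 and 2, P0 knockout replicate 2, P14 control replicates 1 and 2 and P14 knockout replicate 1. It measured 130, 128 and 124 CPM in P0 wild type and 107, 107 and 104 CPM in P0 knockouts, with no overlap, and 74.8 to 89.1 CPM and 89.2 to 103 CPM in P14 controls and knockouts. Tmem270, Cldn4, Fkbp6 and Trim50 had too few counts to be tested in any comparison.

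Relatives of the 9 genes by function came next. Of the family of GalNAc transferases to which Galnt17 belongs, 14 were tested at P0 and 15 at P14, with none called in edgeR and 2 and 3 at an unadjusted p under 0.05. All tested genes gave 0.909% and 1.99% calls and 16.1% and 15.2% at that unadjusted p. The 3 tested CaBP genes, relatives of Caln1, and the 3 other CLIP genes gave none either, nor did the 8 clamp loader genes around Rfc2 or the 10 BAZ and ISWI genes around Baz1b. At an unadjusted p under 0.05 these last 2 lists gave 2 and 1 at P0 and 0 and 3 at P14, and the CaBP and CLIP genes gave 0. Of 15 genes of the LIM kinase and cofilin pathway, 1 was called at P0 (6.67%, against 0.909% of all tested genes) and 0 at P14. The gene was Ssh1, a phosphatase that reactivates cofilin and so works against Limk1, and it was lower in P0 knockouts (-0.51, SE 0.09, edgeR adjusted p 0.0280). Ssh1 also lies on chromosome 5, 17.4 Mb from Auts2. It measured 51.1, 57.8 and 47.5 CPM in wild type and 36.6, 35.6 and 37.5 CPM in knockouts, and the call was lost without wild-type replicate 1 or 2 or knockout replicate 1 or 2. Of the elastic fibre genes, 11 were tested at P0 with none called (3 at an unadjusted p under 0.05) and 10 at P14 with 1 called. Mfap4, a microfibril-associated protein gene, was lower in P14 knockouts, at 2.88, 3.72 and 4.01 CPM against 8.15, 6.14 and 7.12 CPM (log2 -1.005, SE 0.19, edgeR adjusted p 0.0125), and the call was lost without control replicate 1 or knockout replicate 1.

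For each of the 9 genes, the protein-coding gene whose log2 CPM followed it most closely over the 12 libraries was looked up among 13090 candidates, as a description only. The libraries share tissue, age and depth within each group, and for most of the 9 the levels differ between P0 and P14. Pearson's r was 0.998 for Galnt17 with Sort1 on chromosome 3, 0.994 for Gtf2ird1 with Evl on chromosome 12, and 0.991 for Limk1 with Lrrc3 on chromosome 10. It was 0.984 for Caln1 with Adcy1, 0.982 for Baz1b with Chd4, 0.981 for Clip2 with Lrfn3, 0.979 for Gtf2i with Hsf1 and 0.960 for Rfc2 with Tdp1. Eln had the weakest partner, Cd83, with 0.884. None of the 9 had its closest partner on chromosome 5. The share of the 13090 candidates that lie on chromosome 5 is not given here, so this count has no background beside it.

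Annotated genes on the other strand overlap 6 of the 9. Caln1, Gtf2ird1, Clip2, Limk1, Eln and Rfc2 are these 6, and because the libraries do not mark strand, reads from such a pair cannot be told apart where they overlap. The sum of the 2 strand columns was up to 1.08 times the unstranded count for Clip2 and 1.07 times for Gtf2ird1, and equal or nearly equal to it for Caln1 and Limk1.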

How the data were processed

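The authors deposited raw counts per Ensembl gene for each of 12 libraries, per the file headers and names from STAR's gene counting on GRCm38 with annotation release 102, and the submitters' processing notes name STAR 2.7.5a and edgeR 3.12. How reads were trimmed, and how multiply mapped reads were counted, is not given in the sources used here. Per the labels' protocols, libraries were Illumina TruSeq RNA, read in pairs of 150 bp on an Illumina HiSeq. The unstranded count was used. Symbols, positions and exon lengths came from GENCODE vM21 (GRCm38), which named 55141 of 55487 identifiers.

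Counts were tested with edgeR 4.0.16 in R 4.3.3 (filterByExpr, TMM, estimateDisp, robust glmQLFit, glmQLFTest), with Benjamini-Hochberg adjustment over all genes tested and a threshold of 0.05. P0 and P14 were fitted on their own 6 libraries, as were the 2 control groups, and the difference of the genotype effects and the effect over both on all 12. The biological coefficient of variation was 0.104 at P0, 0.0998 at P14 and 0.103 over 12 libraries. SE came from the log2 fold change and its F statistic, and 95% intervals from the t distribution with the fit's degrees of freedom. Exact permutation tests on log2 CPM (prior count 2) were two-sided, run for 9 genes and Auts2 and not adjusted. P-values set the difference of the groups against the spread between these animals, which edgeR moderates with that of the other tested genes. The scripts were tested on simulated data with 200 genes changed 2-fold. They recovered 77.5% of these at P0, 76.5% at P14, 64% for the difference, 79.5% over both and 72.5% between controls. Of the calls made there, 9.88%, 10.5%, 5.19%, 6.47% and 9.38% were false, in the same order. Each share was over the one that the threshold of 0.05 aims at. Reads carry no molecular identifiers, so intervals treat them as more independent than they may be.

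Members and lists were chosen with earlier results of these data known. All 9 genes and Auts2 are named, with called genes of the lists and the closest gene by correlation for each of the 9. Alternatives were RLE normalization, no low-count filter, DESeq2 1.42.0, the sum of strand columns, non-robust fitting, a GC offset (GC known for 99.9% of genes), 1 fit on 12 libraries, the library number series, other windows, longest-transcript length, and leaving out each library. Exon 7 itself, isoforms and allelic reads were not analysed here.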

Additional observations from a re-analysis of the deposited data

Results flagged for a closer look

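These values were singled out because the genotype effects at P0 and P14 differed, by the edgeR interaction test or because all knockouts lay on opposite sides of all controls. Among the 9 genes, Caln1 had a difference of 0.65 on the log2 scale (edgeR adjusted p 0.0282). Limk1 had 0.29, with knockouts under every control at P0 and over every control at P14, and did not pass (edgeR adjusted p 0.173). Auts2 had -0.48, with knockouts over every control at P0 and under every control at P14, and did not pass (edgeR adjusted p 0.0565). Among the genes around them, the differences were 0.70 for Stx1a, 0.50 for Hip1, 0.79 for Tmem132d, 0.78 for 4933404O12Rik and -0.65 for Znhit1, with edgeR adjusted p of 0.0111, 0.0212, 0.00521, 0.0305 and 0.0295. Of these, 4933404O12Rik and Znhit1 passed in 4 of 12 fits when each library in turn was omitted, and Tmem132d in 12 of 12. The 2 former lost the call without P0 replicates 1 and 2 of either genotype, P14 control replicates 1 and 2 and P14 knockout replicate 1, Znhit1 also without P14 knockout replicate 2 and 4933404O12Rik without P14 knockout replicate 3. Mfap4, the elastic fibre gene on chromosome 11, had -1.23 (edgeR adjusted p 0.0258), kept in 5 of 12 and lost without P0 replicates 1 and 2 of either genotype, P14 control replicate 1 and P14 knockout replicates 1 and 2. Age, region, Cre line and control genotype cannot be told apart as the source of these differences. Groups of 3 are too small for a check of single outlying libraries.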

How the results depend on the processing

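No paired analysis was possible because replicate numbers were given in accession order and pair no libraries. Of the 9 genes, the count called at P0 moved from 0 to 1 (Caln1) without the filter on low counts, with DESeq2, with the GC offset, in 1 fit on all 12 libraries and with the library series as a term, and ranged from 0 to 1 when a library was left out. At P14 it moved from 0 to 1 (Gtf2ird1) without the filter, and from 0 to 3 over left-out libraries. For the difference it was 1, and from 0 to 1 over left-out libraries. Over both contexts it stayed at 0 and between control tissues near 7. With a window of 2 Mb around Auts2, calls went from 2 to 0 at P0, 2 to 0 at P14, 6 to 1 for the difference and 76 to 26 between control tissues, as fewer genes were tested, and with 10 Mb from 0 to 1 over both contexts and from 76 to 168 between control tissues. Every value that changed sign had not passed the test in the main fit. Eln between controls did pass with its sign reversed, at -0.40 without P14 control replicate 1 (edgeR adjusted p 0.00298). Under the GC offset, Baz1b at P14 was -0.021, Rfc2 in the difference -0.024, Limk1 over both -0.015 and Eln between controls -0.071. Rfc2 in the difference was -0.022 without the filter, and Baz1b at P14 was -0.00207 in 1 fit on 12 libraries. Leaving out a library in turn gave -0.12 to 0.049 for Gtf2i, -0.10 to 0.040 for Clip2, -0.26 to 0.095 for Eln and -0.072 to 0.19 for Rfc2 at P0. At P14 it gave -0.62 to 0.0084 for Eln and -0.042 to 0.085 for Baz1b. For the difference it gave -0.087 to 0.022 for Galnt17, -0.092 to 0.069 for Gtf2i, -0.54 to 0.10 for Eln and -0.11 to 0.14 for Rfc2. Limk1 over both ranged from -0.00023 to 0.056, and Eln between controls from -0.40 to 0.24. Of all genes, 147 were called at P0, against 375 with DESeq2, 625 without the filter, 50 with non-robust fitting, 369 with the GC offset, 84 with the strand sum, 284 in 1 fit on 12 libraries, 465 with the library series and 1 to 775 over left-out libraries. At P14, 342 became 534 with DESeq2, 814 without the filter and 104 to 1808 over left-out libraries. For the difference, 326 became 535, 646 and 125 to 905, and over both contexts 131 became 398, 467, 81 with the GC offset and 57 to 133. The cause of these changes was not tested. Longest-transcript length gave other levels per kb. With 3 animals per group, a gene that did not pass may still differ by any amount inside its 95% interval.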
